A study of Mus musculus with 8 samples.

Results

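The genes described here are the mouse desaturases Scd1 and Scd2, the lipogenic enzymes Acly, Acaca, Fasn, Elovl6 and Me1, and the regulators Srebf1, Srebf2 and Thrsp. They are 10 of the 53819 gene symbols in the deposited count table, were found by symbol alone, and all 10 were among the 14070 genes counted deeply enough to be tested. RNA was sequenced from the quadriceps muscle of wild-type C57BL/6J mice that were 8 weeks old at the start. The tumor group (n = 4) received 500000 cells of B0092, 1 line of head and neck squamous cell carcinoma, under the skin near the nape, and the control group (n = 4) received PBS, the vehicle. Muscle was taken on day 36, at a weight loss of about 10% in the tumor group, to study cancer cachexia, the wasting of muscle and fat in cancer. The labels of the controls also carry the name of the line, but their treatment is given as vehicle. Each library came from 1 mouse.

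New fatty acids are made from citrate. ATP citrate lyase (Acly) splits it into acetyl-CoA, acetyl-CoA carboxylase (Acaca) makes malonyl-CoA, fatty acid synthase (Fasn) builds palmitate from these with NADPH that malic enzyme (Me1) helps to supply, Elovl6 lengthens palmitate to stearate, and stearoyl-CoA desaturases (Scd1, Scd2) insert the double bond that gives oleate and palmitoleate. SREBP-1 (Srebf1) is the main transcription factor of these enzymes and SREBP-2 (Srebf2) that of cholesterol synthesis, and Thrsp (Spot 14) is a small nuclear and cytosolic protein that accompanies lipogenesis. In mice the pathway is most active in liver and fat cells, and fat cells also lie between the fibres of a muscle.

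Proximal promoters are shown for Fasn and Thrsp, which had the order of a fat cell marker across control libraries, and for Srebf2, which did not. They are the RefSeq windows of 250 bases before and 50 after the annotated start, build GRCm38.p6, which is not the build of the counts. The Fasn window is chr11:120824498-120824797 (minus strand), the Thrsp window chr7:97417501-97417800 (minus strand) and the Srebf2 window chr15:82147019-82147318 (plus strand). Capitals mark matches to CCAAT (the NF-Y box) and to GGGCGG (the Sp1 box) on either strand.
Fasn: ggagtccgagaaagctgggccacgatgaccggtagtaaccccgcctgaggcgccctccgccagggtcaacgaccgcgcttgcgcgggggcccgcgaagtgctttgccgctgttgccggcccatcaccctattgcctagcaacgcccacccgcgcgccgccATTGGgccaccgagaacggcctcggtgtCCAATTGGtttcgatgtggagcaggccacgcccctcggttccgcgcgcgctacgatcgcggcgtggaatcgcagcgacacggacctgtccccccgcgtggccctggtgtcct
Thrsp: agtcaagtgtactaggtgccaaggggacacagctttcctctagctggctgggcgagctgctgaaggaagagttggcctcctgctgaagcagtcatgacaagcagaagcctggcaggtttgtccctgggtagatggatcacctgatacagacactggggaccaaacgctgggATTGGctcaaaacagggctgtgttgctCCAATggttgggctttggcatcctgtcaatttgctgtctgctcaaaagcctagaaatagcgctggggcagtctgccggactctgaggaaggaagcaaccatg
Srebf2: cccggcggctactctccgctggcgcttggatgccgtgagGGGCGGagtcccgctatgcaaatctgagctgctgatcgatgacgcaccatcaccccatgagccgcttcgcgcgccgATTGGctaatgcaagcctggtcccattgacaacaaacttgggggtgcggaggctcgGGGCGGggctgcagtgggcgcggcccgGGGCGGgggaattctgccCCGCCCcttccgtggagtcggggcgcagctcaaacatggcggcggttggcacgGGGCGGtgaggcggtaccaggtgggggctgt
The Fasn window held 3 matches to CCAAT, of which a pair on opposite strands overlap each other, and the Thrsp window held 2. The Srebf2 window held 1 match to CCAAT and 5 to GGGCGG. In all, 8 of the 10 genes had a window in the table, with 11 windows between them, of which 7 held CCAAT and 5 held GGGCGG. Over all 32851 windows of the same length, 37.4% held CCAAT and 35.7% held GGGCGG. The sterol regulatory element core TCACNCCAC and the E-box CACGTG, which were searched on both strands as well, had 0 matches in the 11 windows, and 1.24% and 7.15% of all windows held them. Only exact matches were counted, so sites that differ from these cores by a base were not found.

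The libraries held 28436254 to 36139478 counts. The muscle genes Ckm and Acta1 were among the abundant transcripts of every library (at least 7316 and 5088 counts per 1000000, CPM). Libraries stood apart in both groups. Myh4, the myosin of the fastest fibres, made up 80.3% of adult myosin heavy chain counts in tumor library 2 and 64.6% in control library 4, against 88.5% to 98.9% in the other libraries. The same 2 libraries were unlike the others of their group in the fat cell marker Adipoq (adiponectin). Adipoq was at 6.02, 76.5, 6.39 and 3.39 CPM in tumor libraries 1 to 4, and at 50.7, 85.7, 26.6 and 1.59 CPM in control libraries 1 to 4. Thus 3 tumor libraries and control library 4 were low in this marker, while tumor library 2 and 3 control libraries were high, and the groups overlapped. The summed level of the defining markers Adipoq, Plin1, Cidec and Adig ran from 9.07 to 229 CPM in tumor libraries and from 8.37 to 204 CPM in control libraries. The sum of all 12 fat cell markers ran from 618 to 1831 CPM in tumor libraries and from 921 to 2786 CPM in control libraries, and most of it in the low libraries was Car3, which muscle fibres also express. In bulk RNA, fewer fat cells and less RNA per fat cell cannot be told apart.

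Of the 10 genes, 4 fell in tumor-bearing mice at an adjusted p under 0.05 (Scd1, Scd2, Acly and Srebf2), 0 rose and 6 did not pass (edgeR quasi-likelihood test, adjusted by Benjamini-Hochberg over all 14070 genes). Of all tested genes, 19.8% were called, and 8.73% were called lower. Over all genes 1552 rose and 1229 fell, but with upper-quartile scaling, which moved the median log2 fold change of all genes to -0.07, 1169 rose and 1547 fell. The median log2 fold change of the 10 genes was -1.67, against 0.00 over all tested genes. In 2 of the 10, Scd2 and Srebf2, all tumor values lay below all control values, which held for 11.5% of all tested genes, and the groups were apart in either direction for 25% of them. The count of falls was 9 without control library 4 and tumor library 2, where 11 of the 12 fat cell markers fell as well. In that fit 20.7% of all genes were called. It sets controls high in Adipoq against tumor libraries low in it. The number of fat cell markers called lower (1 with all 8 libraries), and the count among the 10 genes, thus varied with the choice of libraries. The part of fat cell content in these falls was not tested. Among the 10 genes the count was 2 with the Adipoq level as a covariate (16.7% of all genes), and these were Scd2 and Srebf2. Leaving out tumor library 3, control library 1 or control library 2 gave 1, leaving out tumor library 1 or 4 or control library 3 gave 2, and leaving out tumor library 2 or control library 4 gave 6. Calls over all genes fell off in some of the same fits, to between 7.75% and 9.58% in the 3 fits with 1 call and to 12.9% when control library 3 was omitted. They were 19.8% when tumor library 1 was omitted and 18.5% when tumor library 4 was. In the fits with 6 calls they were 19.4% (tumor library 2 omitted) and 15.8% (control library 4 omitted).

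**Figure D1:**
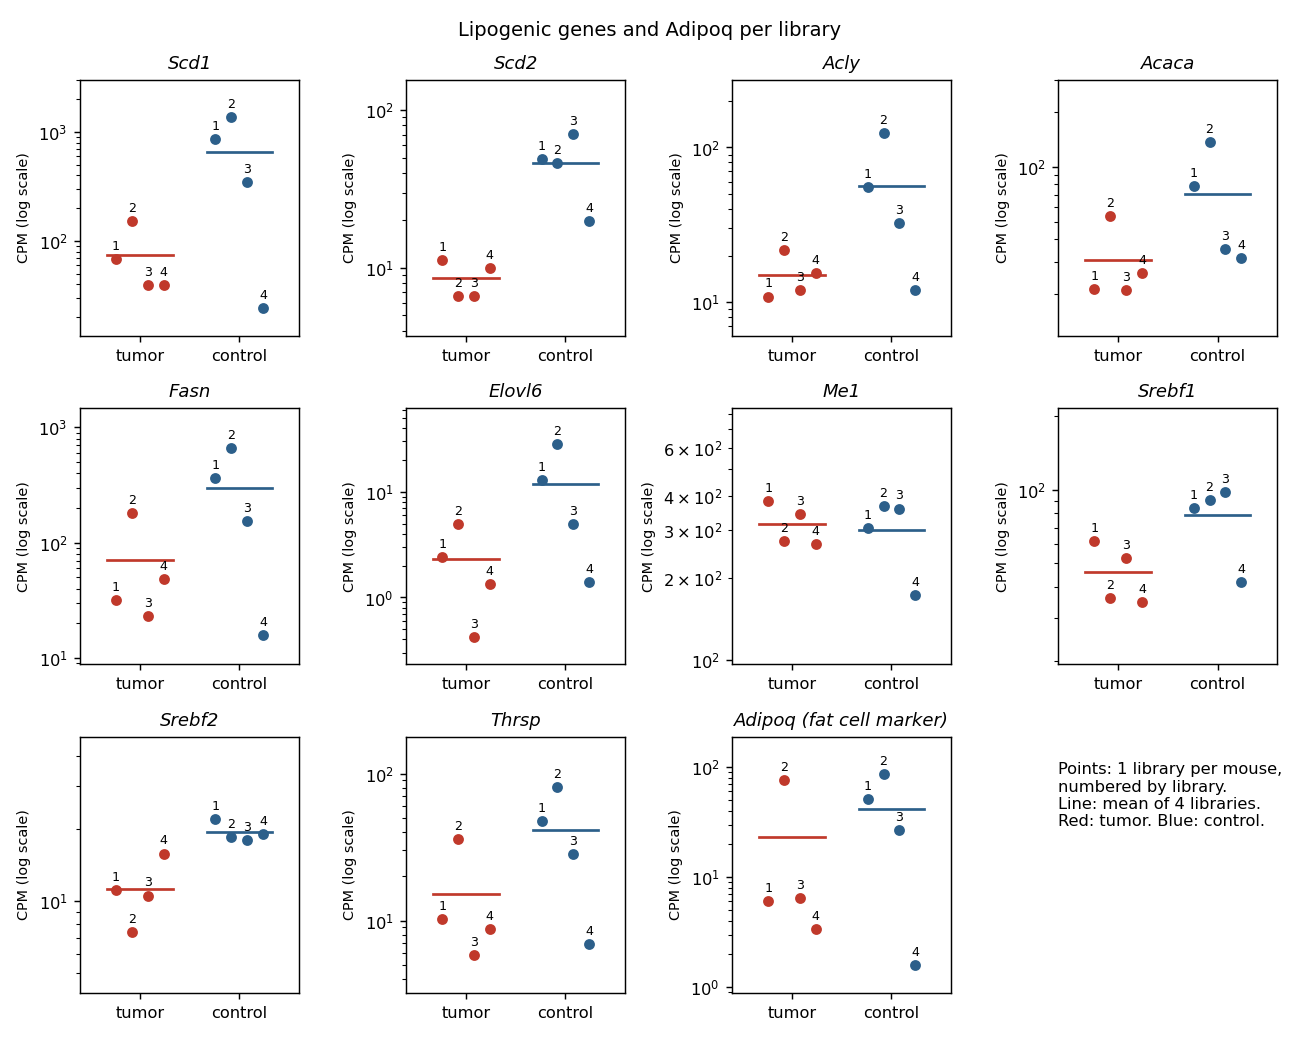
Counts per 1000000 (CPM, log scale) of the 10 lipogenic genes and of the fat cell marker Adipoq in each library, numbered within its group, with tumor libraries in red and control libraries in blue and the mean of 4 as a line. Tumor library 2 and control library 4 take the high and low ends of their groups for Scd1, Fasn and Thrsp as they do for Adipoq, whereas Scd2 and Srebf2 separate the groups in every library.

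Scd2 fell in every fit that was run. It was at 11.2, 6.65, 6.65 and 9.93 CPM in tumor libraries 1 to 4, and at 48.9, 46.4, 70.8 and 19.8 CPM in control libraries 1 to 4. The highest tumor library lay below the lowest control library, which was control library 4. Scd2 fell 5.40-fold (log2 fold change -2.43 ± 0.36, SE, adjusted p = 0.00399, edgeR). The call held in all 18 alternative fits, in which the fall ran from 4.45-fold to 6.43-fold. With the Adipoq level as a covariate the log2 fold change was -2.25 (adjusted p = 0.00976, edgeR), close to that without it. Tumor library 2, with the highest Adipoq of its group, had 6.65 CPM of Scd2, against 46.4 CPM in control library 2, whose Adipoq was similar. Scd2 is the main desaturase of brain and of the developing mouse, and myelinating Schwann cells express it. The summed level of 10 Schwann cell markers was 26.3 to 67.9 CPM in tumor libraries and 34.1 to 69.7 CPM in control libraries, and 0 of the 8 that could be tested passed (edgeR, 0 at an unadjusted p under 0.05). The part of Schwann cells in the fall of Scd2 was not tested. Of endothelial markers 3 of 5 fell as well (Kdr, Emcn and Tek), beside 8.73% of all tested genes. The summed level of the 5 endothelial markers was 60.9 to 107 CPM in tumor libraries and 121 to 184 CPM in control libraries, without overlap. Among single genes, 11.5% of all tested were lower in tumor libraries without overlap. Control library 4 had the highest sum and the lowest Scd2 of the controls, and tumor library 2 had the highest sum of its group at 6.65 CPM of Scd2. With 4 libraries a group, the sum and Scd2 cannot be related within groups. The part of endothelial cells was not tested either. Of macrophage markers 0 of 6 passed and of fibro-adipogenic progenitor markers 0 of 5, with 1 of each list at an unadjusted p under 0.05 (edgeR). They were Cd68, 3.41-fold higher (adjusted p = 0.0961, edgeR), and Col1a1, 3.02-fold lower without overlap of the groups (adjusted p = 0.059, edgeR).

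Scd1, the desaturase of fat cells and liver, fell further on average but unevenly. It was at 68.2, 153, 39.7 and 39.6 CPM in tumor libraries 1 to 4, and at 858, 1369, 345 and 24.3 CPM in control libraries 1 to 4. Control library 4 lay below every tumor library, and the other 3 controls lay above them all. Scd1 fell 8.64-fold (log2 fold change -3.11 ± 0.95, SE, adjusted p = 0.0464, edgeR). The call was lost without tumor library 1, 3 or 4 or control library 1, 2 or 3, with adjusted p values from 0.0641 to 0.128 (edgeR). Omitting control library 2 left Scd1 5.44-fold lower, and omitting tumor library 2 left it 13.5-fold lower. With the Adipoq level as a covariate it was 2.58-fold lower and did not pass (adjusted p = 0.085, edgeR). It was 17.6-fold lower without control library 4 and tumor library 2 (adjusted p = 0.00432, edgeR), where Adipoq fell as well (log2 fold change -3.38). Scd1 and Scd2 are close copies and most of their estimated counts were not whole numbers, so how reads that match both were divided adds uncertainty to each. The neighbouring copies Scd3 and Scd4 had at most 0.42 CPM in any library and were not tested.

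Among the enzymes that make palmitate, Acly fell. It was at 10.9, 21.8, 11.9 and 15.4 CPM in tumor libraries 1 to 4, and at 55.8, 125, 32.6 and 11.9 CPM in control libraries 1 to 4. Control library 4 lay within the tumor range, and the other 3 controls above it. The fall was 3.75-fold (log2 fold change -1.91 ± 0.59, SE, adjusted p = 0.0471, edgeR). That call was lost without tumor library 1, 3 or 4 or control library 1, 2 or 3, with adjusted p values from 0.0576 to 0.128 (edgeR), and the fold was 2.23 without control library 2. With Adipoq as a covariate Acly was 2.10-fold lower and did not pass (adjusted p = 0.0864, edgeR).

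Fasn did not pass. It was at 31.9, 182, 23.3 and 48.5 CPM in tumor libraries 1 to 4, and at 361, 668, 155 and 15.8 CPM in control libraries 1 to 4. Tumor library 2 reached into the range of controls, and control library 4 was the lowest of all 8 libraries. Its log2 fold change was -2.07 ± 0.97 (SE, adjusted p = 0.16, edgeR), and -0.70 with Adipoq as a covariate (adjusted p = 0.324, edgeR). It was 8.87-fold lower when tumor library 2 was omitted (adjusted p = 0.0541, edgeR) and 2.48-fold lower when control library 2 was (adjusted p = 0.394, edgeR). It passed with both control library 4 and tumor library 2 left out (11.5-fold lower, adjusted p = 0.00628, edgeR). Among control libraries alone, Fasn spanned 42.2-fold and Scd1 56.4-fold, beside 53.8-fold for Adipoq. Acaca was at 21.2, 53.8, 21.1 and 26.1 CPM in tumor libraries 1 to 4, and at 78.3, 137, 35.4 and 31.6 CPM in control libraries 1 to 4. Only tumor library 2 overlapped the controls. The log2 fold change of Acaca was -1.21 ± 0.49 (SE, adjusted p = 0.11, edgeR), and it passed without tumor library 2 (3.16-fold lower, adjusted p = 0.0444, edgeR).

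Elovl6 was at 2.44, 4.97, 0.42 and 1.35 CPM in tumor libraries 1 to 4, and at 13.1, 28.2, 5.01 and 1.41 CPM in control libraries 1 to 4. Tumor library 2 lay just under control library 3, and control library 4 was near tumor library 4. The log2 fold change was -2.38 ± 0.88 (SE, adjusted p = 0.086, edgeR). It passed with control library 4 left out (6.72-fold lower, adjusted p = 0.0394, edgeR). The value was 8.71-fold lower when tumor library 2 was omitted and 2.83-fold lower when control library 2 was, and neither passed. Me1 was at 381, 272, 342 and 267 CPM in tumor libraries 1 to 4, and at 304, 366, 359 and 173 CPM in control libraries 1 to 4. The groups overlapped over most of their range. The log2 fold change of Me1 was 0.07 ± 0.24 (SE, adjusted p = 0.859, edgeR), with a 95% normal interval from -0.39 to 0.54, and its sign turned in 5 of 18 alternatives, upper-quartile scaling among them (-0.01).

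**Figure D2:**
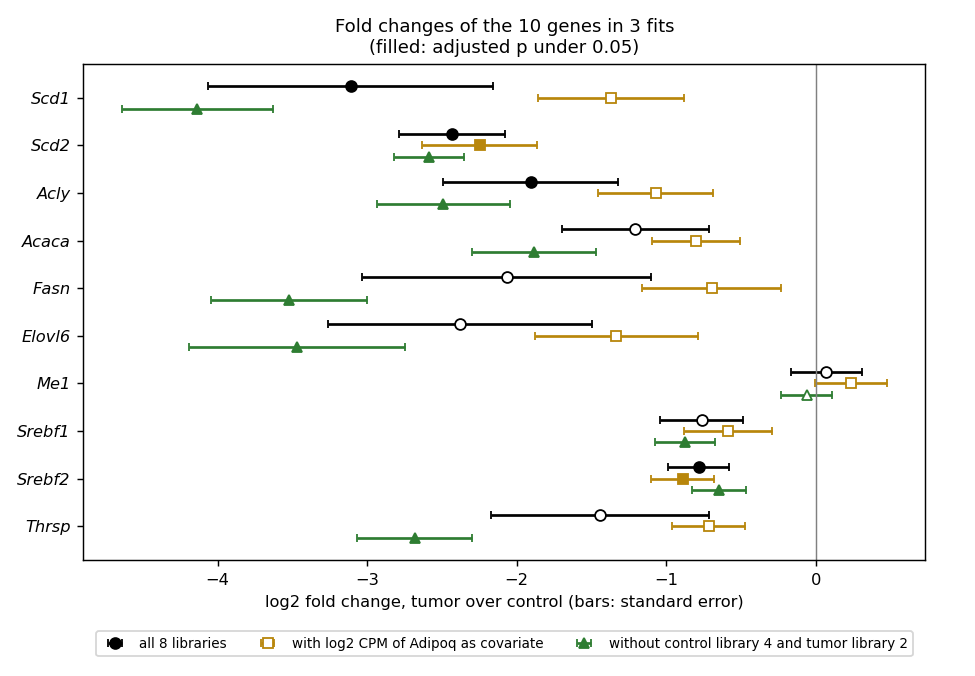
Log2 fold change of each gene, tumor over control, with its standard error, from all 8 libraries (black), with the log2 CPM of Adipoq as a covariate (yellow) and without control library 4 and tumor library 2 (green). The last fit leaves controls high in Adipoq against tumor libraries low in it. Filled symbols passed an adjusted p of 0.05 in that fit. Scd2 stays between -2.59 and -2.25 and Srebf2 between -0.89 and -0.65, while Scd1 runs from -4.14 to -1.37 and Fasn from -3.53 to -0.70.

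Of the SREBP genes, Srebf2 fell. It was at 11.2, 7.46, 10.5 and 15.8 CPM in tumor libraries 1 to 4, and at 21.9, 18.5, 17.97 and 18.9 CPM in control libraries 1 to 4. The groups did not overlap, and controls varied by 1.22-fold between lowest and highest. Srebf2 fell 1.72-fold (log2 fold change -0.78 ± 0.20, SE, adjusted p = 0.0268, edgeR). The call was lost when tumor library 3, control library 1 or control library 2 was left out (adjusted p from 0.0615 to 0.0847, edgeR), at values 1.64-fold to 1.74-fold lower. With Adipoq as a covariate the fall was 1.86-fold (adjusted p = 0.0232, edgeR).

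Srebf1 was at 61.6, 36.0, 52.8 and 34.9 CPM in tumor libraries 1 to 4, and at 84.2, 90.8, 97.6 and 41.9 CPM in control libraries 1 to 4. Control library 4 lay among the tumor libraries, below tumor libraries 1 and 3. The log2 fold change was -0.76 ± 0.28 (SE, adjusted p = 0.081, edgeR). It passed without control library 4 (1.96-fold lower, adjusted p = 0.0186, edgeR), with the myosin ratio as a covariate (2.01-fold lower, adjusted p = 0.00545, edgeR) and in the DESeq2 test (1.70-fold lower, adjusted p = 0.0287). The counts are per gene and do not separate the SREBP-1a and SREBP-1c transcripts, and SREBP activity is set by cleavage of the protein, which RNA does not measure. Thrsp was at 10.2, 35.8, 5.78 and 8.73 CPM in tumor libraries 1 to 4, and at 47.8, 81.3, 28.2 and 6.96 CPM in control libraries 1 to 4. As for Fasn, tumor library 2 overlapped the controls and control library 4 the tumor libraries. Its log2 fold change was -1.44 ± 0.73 (SE, adjusted p = 0.19, edgeR), and it passed without tumor library 2 (5.11-fold lower, adjusted p = 0.0422, edgeR). Without control library 2 it was 1.83-fold lower (adjusted p = 0.461, edgeR).

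In controls, 6 of the 10 (Scd1, Acly, Acaca, Fasn, Elovl6 and Thrsp) had the order of Adipoq, highest in library 2, then 1, then 3, and lowest in library 4. The same 6 genes were highest in library 2 among tumor libraries, again as Adipoq, but 0 of the 10 had the full order of Adipoq in tumor libraries. Scd2, Me1, Srebf1 and Srebf2 had neither the control order nor the peak in tumor library 2. The libraries of each group were too few for a correlation within groups. Tumor library 2 and control library 2 had similar Adipoq, 76.5 and 85.7 CPM. Scd1 was 8.97-fold, Acly 5.71-fold, Elovl6 5.68-fold, Fasn 3.66-fold, Acaca 2.55-fold and Thrsp 2.27-fold lower in the tumor library of this pair, which has no replicates. The pair was not alike in every fat cell marker: Cidec was 1.86-fold and Lep 2.34-fold higher in the tumor library, and Retn 1.64-fold lower. Against control library 1 (50.7 CPM of Adipoq), tumor library 2 was 5.62-fold lower in Scd1, 2.63-fold in Elovl6 and 2.55-fold in Acly. For Fasn, Acaca and Thrsp it was 1.98-fold, 1.46-fold and 1.33-fold lower. Of 12 fat cell markers, 1 fell, Car3 (edgeR, adjusted p = 0.0179, lost without tumor library 3, control library 1 or control library 2, adjusted p from 0.0562 to 0.064). Adipoq itself had a log2 fold change of -0.84 ± 1.13 (SE, adjusted p = 0.641, edgeR). It was 8.00-fold lower when tumor library 2 was omitted (adjusted p = 0.0613, edgeR) and 1.14-fold lower when control library 2 was (adjusted p = 0.939, edgeR). On the same log2 scale, the lipid droplet genes Plin1 and Cidec had -1.09 ± 1.15 and 0.03 ± 1.26, the fat cell gene Adig -0.69 ± 0.82, the hormone gene Lep (leptin) -0.59 ± 1.19, and Retn (resistin) -1.22 ± 0.98. Cfd (adipsin) had -0.90 ± 1.17, Fabp4, a fatty acid carrier of fat cells and endothelium, -0.84 ± 0.59, Pparg, the regulator of fat cell identity, 0.02 ± 0.77, the lipase gene Lipe -0.57 ± 0.69 and Cidea -0.23 ± 1.23. Without tumor library 2, Fabp4 and Plin1 were called lower, with adjusted p values of 0.0197 and 0.0313, and 6 of the 12 markers in all (edgeR). The sign of the Cidec value turned with upper-quartile scaling (-0.08).

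**Figure D3:**
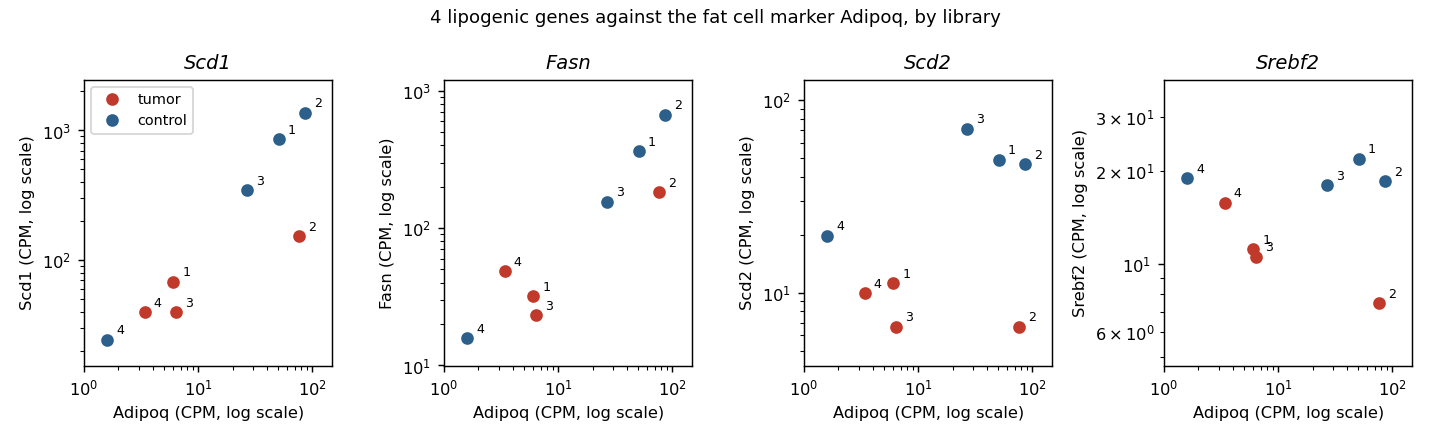
CPM of Scd1, Fasn, Scd2 and Srebf2 against CPM of Adipoq in the 8 libraries (both axes log scale, libraries numbered within group). Scd1 and Fasn have the order of Adipoq across control libraries but not across tumor libraries, where library 2 is highest in all 3, and tumor library 2 lies below control library 2 of like Adipoq. Scd2 and Srebf2 are lower in every tumor library whatever its Adipoq.

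Ratios within a library need no scaling between libraries, apart from the constant of 0.5 CPM added before taking logs. The ratio of Scd1 to Adipoq was 11.3, 2.00, 6.22 and 11.7 in tumor libraries 1 to 4, and 16.9, 15.97, 12.97 and 15.2 in control libraries 1 to 4. Every tumor library lay below every control library, control library 4 included. The log2 ratio was 2.58 ± 1.13 in tumor mice and 3.82 ± 0.24 in control mice (SD, n = 4 each). The difference of -1.25 had a two-sided exact permutation p of 0.0286, the smallest that 4 against 4 can give, and of 0.114 when adjusted over the 4 ratios tested, so it did not pass. The separation depended on the constant: with 2 CPM added in place of 0.5, control library 4 (1.59 CPM of Adipoq) lay among the tumor libraries. It depended on the marker too, and other markers were tried after seeing the data. It also held for the ratio to Cidec, which was 1.63 to 16.4 in tumor libraries and 21.7 to 31.9 in control libraries. It did not hold for Plin1, with 2.89 to 19.9 in tumor libraries and 14.0 to 21.9 in control libraries, nor for the sum of Adipoq, Plin1, Cidec and Adig, with 0.67 to 4.88 in tumor libraries and 2.90 to 6.72 in control libraries. In all 4 comparisons tumor library 2 had the lowest ratio.

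**Figure D4:**
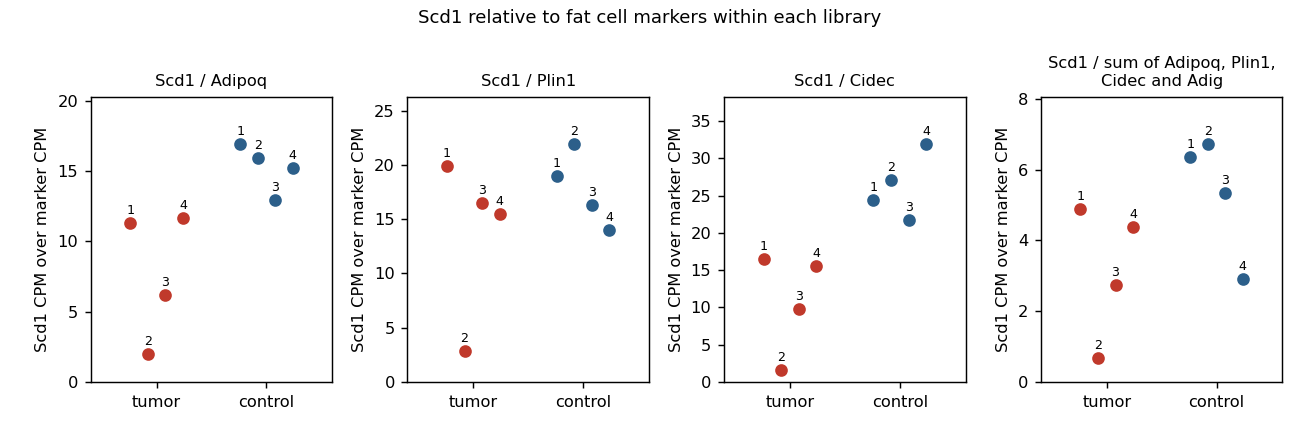
Ratio of Scd1 CPM to the CPM of Adipoq, Plin1, Cidec or the sum of 4 fat cell markers in each library (linear axes from 0, libraries numbered within group). The groups separate for Adipoq and Cidec and overlap for Plin1 and the sum, and tumor library 2 is lowest throughout.

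The other ratios did not separate the groups. The log2 ratio of Scd2 to Adipoq was -0.28 ± 2.17 in tumor mice and 0.94 ± 1.82 in control mice (SD over 4 libraries a group, exact permutation p = 0.486). That of Scd1 to Scd2 was 2.85 ± 1.08 in tumor mice and 2.89 ± 2.05 in control mice (exact permutation p = 0.971). It reached from 0.29 in control library 4, where both desaturases were at a similar level, to 4.87 in control library 2. That of Srebf1 to Srebf2 was 2.00 ± 0.59 in tumor mice and 1.93 ± 0.58 in control mice (exact permutation p = 0.771). Adjusted over the 4 ratios, each of these 3 had p = 0.971 (exact permutation test).

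Per length of the longest annotated coding transcript, the order of levels differed between the groups. Me1 was the most abundant of the 10 in tumor mice, at 95.9 ± 16.8 CPM per 1000 bases, and had 91.2 ± 27.2 in control mice (SD, n = 4 each). Scd1 was at 15.5 ± 11.1 CPM per 1000 bases in tumor mice and 134 ± 122 in control mice, where its mean was the highest of the 10. Scd1 ran from 5.02 to 283 in control mice and Me1 from 52.5 to 111, so their order there does not exceed the spread. Thrsp (11.8 ± 10.9 and 32.2 ± 24.7 CPM per 1000 bases in tumor and control mice), Srebf1 (10.8 ± 3.04 and 18.3 ± 5.84) and Fasn (7.12 ± 7.43 and 29.9 ± 28.2) overlapped in level within each group. Acly, Acaca, Srebf2, Scd2 and Elovl6 followed in tumor mice, the last at 0.39 ± 0.33 CPM per 1000 bases.

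Lists of genes that act around the pathway are set beside the 10, and their counts are to be read against the 19.8% of all tested genes that were called. Of 13 genes that process SREBPs or act with them, 2 rose and 1 fell (median log2 fold change 0.04). Mbtps2, the protease that makes the second cut of SREBPs, was at 19.2 to 21.3 CPM in tumor libraries and 12.9 to 15.2 CPM in control libraries (log2 fold change 0.51 ± 0.10, SE, adjusted p = 0.0108, edgeR). Nr1h2 (LXR beta), a sterol sensor that can raise Srebf1, was at 52.7 to 72.0 CPM in tumor libraries and 33.3 to 42.0 CPM in control libraries (log2 fold change 0.71 ± 0.13, SE, adjusted p = 0.00725, edgeR). Mlxipl (ChREBP), the glucose-responsive activator of lipogenic genes, fell by 0.68 on the log2 scale, to 44.2 to 60.4 CPM in tumor libraries against 68.4 to 97.5 CPM in control libraries (adjusted p = 0.0127, edgeR). These 3 calls held in all 18 alternatives. Scap, the SREBP escort, had a log2 fold change of 0.04 ± 0.10. Insig1, the SREBP anchor and itself an SREBP target, lay at the threshold (log2 fold change -0.63 ± 0.20, SE, adjusted p = 0.0503, edgeR) and passed without tumor library 2 (adjusted p = 0.0388) or control library 4 (adjusted p = 0.0109). Scap and Insig1 were named after their values were seen.

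Of 19 genes of cholesterol synthesis and sterol transport, 5 fell and 0 rose (median log2 fold change -0.52). Hmgcs1, which makes HMG-CoA, was at 17.8 to 24.8 CPM in tumor libraries and 26.9 to 33.7 CPM in control libraries (1.44-fold lower, adjusted p = 0.0272, edgeR). Idi1, the isopentenyl isomerase, fell 1.69-fold (adjusted p = 0.0284), Tm7sf2, a sterol reductase, 2.99-fold (adjusted p = 0.0303) and Stard4, a sterol carrier, 2.15-fold (adjusted p = 0.0386, edgeR). Dhcr7, a sterol reductase of the last steps, fell 2.33-fold (adjusted p = 0.0387, edgeR, named after its values were seen). Each of these 5 lost its call when any of several single libraries was omitted. Omitting tumor library 3, control library 1 or control library 2 left 0 calls in edgeR, omitting control library 3 left 1, omitting tumor library 4 left 2 and omitting tumor library 1 left 3. The share called over all genes was 7.75% to 9.58% in the fits with 0 calls and 12.9% without control library 3. The count was 2 with Adipoq as a covariate, and 8 without control library 4 and tumor library 2 or with the myosin ratio as a covariate. Over all genes the shares called in these fits were 16.7%, 20.7% and 21.5%, in that order.

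Of 16 tested genes of other steps in fatty acid synthesis, elongation and desaturation (22 in the list), 1 fell. It was Hacd1, the muscle dehydratase of very long chain elongation, at 14.8 to 30.3 CPM in tumor libraries and 39.0 to 59.4 CPM in control libraries (2.36-fold lower, adjusted p = 0.0125, edgeR, called in all 18 alternatives). The count was 2 without tumor library 1 or 2. Acacb, the carboxylase of muscle mitochondria, was at 390 to 985 CPM in tumor libraries and 365 to 538 CPM in control libraries and did not pass (adjusted p = 0.175, edgeR, named after its values were seen). Of 9 NADPH supply genes 0 passed by edgeR, DESeq2 or limma-voom, and 0 had an unadjusted p under 0.05 by edgeR. The pair with the smallest p were G6pdx and Me3, with log2 fold changes of -0.64 ± 0.40 and -0.49 ± 0.24 (SE), and 1 gene of this list was called without tumor library 2. Of 11 tested glycerolipid synthesis genes (13 in the list), 2 rose and 1 fell. Lpin2, a phosphatidate phosphatase, rose 6.17-fold, to 7.87 to 21.1 CPM in tumor libraries against 2.23 to 3.08 CPM in control libraries (adjusted p = 0.00233, edgeR, called in all 18 alternatives). Its relative Lpin3 rose 1.89-fold (adjusted p = 0.0455, edgeR), and Agpat2, an acyltransferase of fat cells, fell 4.04-fold (adjusted p = 0.0325, edgeR). Lpin3 lost its call without tumor library 1, 3 or 4 or control library 1, 2 or 3 (adjusted p from 0.0799 to 0.11), and Agpat2 without tumor library 1, 3 or 4 or control library 1 or 2 (adjusted p from 0.0689 to 0.0936).

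**Figure D5:**
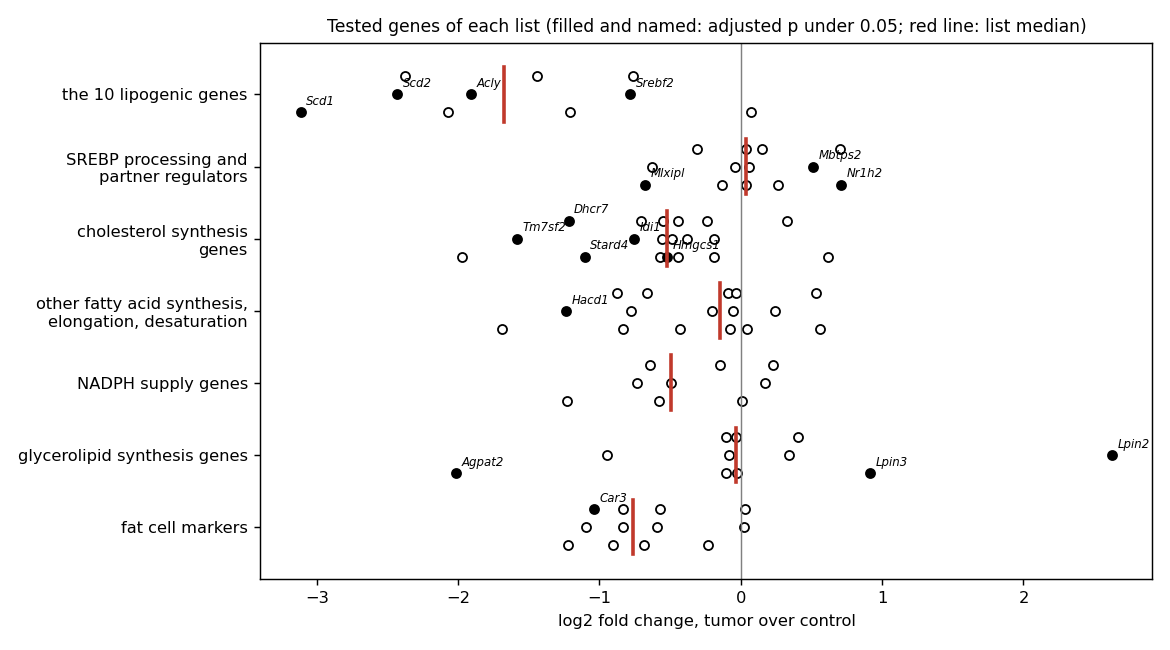
Log2 fold change, tumor over control, of every tested gene of the 10 lipogenic genes and of 6 related lists, with genes past an adjusted p of 0.05 filled and named and the list median as a red line. The 10 genes have a median of -1.67, the cholesterol list -0.52 and the fat cell markers -0.76, and Lpin2 stands at 2.63.

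The genes nearest to a member in their course over the 8 libraries were found among 10210 others by the mean absolute difference of centred log2 CPM. For Scd1 they were Fasn (0.49), Orm1 (0.55), Plin1 (0.57), Ifi27l2a (0.58) and Mrap (0.65), of which Plin1 coats lipid droplets of fat cells and Orm1 is an acute phase protein. For Scd2 they were Ret (0.19), Map2k6 (0.27), Pde4a (0.29), Amd2 (0.31) and Col15a1 (0.32). Ret is a receptor of glial-derived growth factors, Map2k6 a kinase that activates p38 and Col15a1 a basement membrane collagen. For Srebf1 they were Smtnl2 (0.11), Enho (0.14), Syt3 (0.15), Tmem141 (0.15) and Fam20c (0.15). The measure includes the difference between groups, so the direction of these genes was set by their choice.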

How the data were processed

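Quadriceps mRNA was sequenced, with 1 library for each mouse. The authors deposited estimated counts per gene symbol, 9% of them not whole; Salmon 1.10.1, STAR 2.7.9a, R 4.2.2, Trim Galore 0.6.7, cutadapt 3.4 and the build GRCm39 are named in the submitters' processing notes, in roles not given in the sources used here. Sharing of reads by likelihood makes values of close gene copies less certain, and the strand setting was not given.

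Counts were rounded, filtered with filterByExpr (minimum count 10; 14070 genes kept, 99.92% of counts), scaled by TMM and tested for group with the edgeR quasi-likelihood test (edgeR 4.0.16, R 4.3.3), two-sided, adjusted by Benjamini-Hochberg, at a threshold of 0.05. The standard error is the log2 fold change over the root of F. CPM use TMM-scaled totals. Ratios used log2 of CPM + 0.5 and an exact permutation test over 70 splits. Alternatives were other scaling, filters, libraries left out, a replicate block, covariates (Adipoq, the log2 ratio of Myh4 to Myh1, Myh2 and Myh7), DESeq2 1.42.0 and limma-voom (limma 3.58.1). Transcript lengths were of GENCODE M21. The test was also run on counts simulated gene by gene, without differences in fat cell content shared between genes. No result here rests on that run.

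Members and lists were chosen with earlier results of these data known. Named were all 10 genes, all fat cell markers, in each list up to 4 called genes with the smallest p (2 where none was called), and for Scd1, Scd2 and Srebf1 the 5 genes nearest in course (average log2 CPM at least 1). No libraries of 1 group agreed within counting error. Whether reagents or days were shared was not given. Some genes of the cholesterol list are not reported here and do not enter its counts.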

Additional observations from a re-analysis of the deposited data

Results flagged for a closer look

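Tumor library 2 stood apart from the other 3 tumor libraries in 3 of the 10 lipogenic genes and in 10 of the 12 fat cell markers. The gap was most of the group's range (Dixon's 95% criterion). Chance gives such a gap in about 1 of 20 groups of 4 with normal values, and 52 groups were looked at. The genes flagged in tumor library 2 were measured in the same library, so their flags are not independent and their number cannot be set against that rate. Acaca was at 53.8 CPM there and at most 26.1 in the other tumor libraries, Fasn at 182 CPM and at most 48.5, and Thrsp at 35.8 CPM and at most 10.2. Among fat cell markers Adipoq was at 76.5 CPM (at most 6.39 in the others), Plin1 at 52.9 (3.42), Cidec at 93.7 (4.15), Lep at 7.21 (0.89), Retn at 15.4 (2.18) and Cfd at 494 (40.3). Fabp4 was at 423 CPM there (120), Pparg at 8.99 (1.38), Lipe at 84.1 (16.7) and Cidea at 25.5 (0.92). The other 7 of the 10 genes did not show it. In tumor library 4 the log2 ratio of Srebf1 to Srebf2 was 1.12, the lowest of its group by the same criterion, and control library 4 had 1.12 as well.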

How the results depend on the processing

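Scd2 kept its call in all 18 alternatives, while Srebf2 lost it in 3 and Scd1 and Acly in 10 each, with no change of sign. Leaving out control library 4 and tumor library 2 gave 9 calls among the 10 genes, 5 in the SREBP list, 8 in the cholesterol list, 6 in the other fatty acid list and 11 fat cell markers. The Adipoq covariate gave 2, 2 in the cholesterol list and 2 fat cell markers, and limma-voom gave 2 of the 10. The other fatty acid list had 2 calls under upper-quartile scaling, the strict filter and DESeq2, and 3 with the myosin ratio, which gave 6 in the SREBP list and 8 in the cholesterol list. Of all genes, 20.7% were called without control library 4 and tumor library 2, 16.7% with the Adipoq covariate and 19.7% with limma-voom. The share was 19.3% with upper-quartile scaling, 26.2% with the strict filter, 26.6% with DESeq2 and 21.5% with the myosin ratio. With 1 library left out, calls ran from 1 to 6 (the 10 genes), 1110 to 2845 (all genes), 3 to 5 (SREBP list), 0 to 4 (cholesterol), 1 to 2 (other fatty acid), 0 to 1 (NADPH), 1 to 4 (glycerolipid) and 0 to 6 (fat cell markers).

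Me1 turned to -0.0063 (log2) with upper-quartile scaling, -0.0619 without control library 4 and tumor library 2 and -0.10 with the myosin ratio, and ran from -0.12 to 0.18 with 1 library left out. Cidec turned to -0.0839, -3.25 and -0.77 in the same 3 settings and -0.68 with limma-voom, and ran from -2.87 to 0.60 with 1 library left out. With the Adipoq covariate Lep was at 0.0662 and Cfd at 0.14 (Adipoq itself, at 0.0078, is near 0 by construction), and Lep ran from -2.84 to 0.11 with 1 library left out. Of the ratio differences, Scd1 to Scd2 was 0.0134 at a pseudocount of 0.1 CPM and ran from -0.90 to 0.62 with 1 library left out, Scd2 to Adipoq was 0.62 and Srebf1 to Srebf2 -0.26 without control library 4 and tumor library 2, and the last ran from -0.20 to 0.37. The cause was not tested.

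Same-numbered libraries of the groups deviated with correlations of 0.02 to 0.20. Tumor libraries 2 and 3 correlated best with the control of their own number, and tumor libraries 1 and 4 did not. No clear pairing by number was seen, but correlations this weak cannot exclude one. With a replicate block there were 4 calls among the 10 genes (1932 over all), 3 in the cholesterol list, 2 in the other fatty acid list and 2 fat cell markers, and Cidec was at -0.71. The 4 block calls were Scd2, Srebf2, Acaca and Elovl6. Exact tests of ratios cannot go below 0.1 with 3 against 3. Elovl6 had the lowest count of the 10, 13 in 1 library, while standard errors were largest for Fasn and Scd1.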
